A study of Homo sapiens with 12 samples.

Results

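The intronic IR peaks are the 184 regions of the insulin receptor (IR) ChIP-seq peak list that HOMER annotated to an intron and placed more than 1000 bases from the nearest transcription start site. They were chosen by these 2 columns alone, without the score, and made up 184 of 1971 peaks, or 9.34% (95% Wilson interval 8.13% to 10.7%). The list came from 1 library of HepG2, an established human hepatocellular carcinoma line, in which DNA crosslinked to IR was pulled down with an IR antibody and sequenced. The labels describe the cells as kept in a medium with insulin, washed and then stimulated with 3 nM insulin, with no stimulation time. The host genes were followed through an RNA-seq time course of insulin at 0, 5, 10, 30 and 240 min in the same line, each time in duplicate (2 libraries), and the treatment text of every one of these libraries, the 0 min libraries included, gives 3 nM insulin for 5 min, which the titles contradict. The extraction text of the 2 assays appears to be exchanged in the labels, since the ChIP library carries an RNA kit and the RNA libraries a DNA extraction, and the treatment texts may be exchanged too. Groups and times were therefore taken from the titles, and the insulin treatment of the ChIP cells and its length are uncertain.

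IR is a receptor tyrosine kinase that binds insulin at the cell surface, and the receptor has also been found on chromatin. A peak within an intron can mark an enhancer, an internal promoter or a structural site, and it need not act on the gene it lies in. ZNF143 and THAP11 are DNA-binding proteins that recognise overlapping letters beginning ACTACA and are known to act with the co-regulator HCFC1. Forkhead factors such as FOXA and FOXO bind TGTTTAC letters, and in the liver FOXO factors are restrained by insulin signalling.

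The letters CTACA, any 2 bases and TCCC, a wider form of the ZNF143 and THAP11 motif, were found in 24 of the 184 intronic peaks within 300 bases at the peak centre, counting both strands. This form was chosen after the sequences of the highest-scoring members were read, so its share among the highest scores is not independent of that choice, and it overlaps the 9-letter form ACTACAATT that was searched as well. The sites of 8 members are given below 5′ to 3′ on the strand of the site, with 20 bases on each side, from the GRCh37 genome, and capitals mark the 11 letters of the motif.
LMTK3, chr19:49013916-49013966, plus strand: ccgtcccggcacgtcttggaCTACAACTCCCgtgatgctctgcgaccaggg
LMTK3, chr19:49013984-49014034, minus strand: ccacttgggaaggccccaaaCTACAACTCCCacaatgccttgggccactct
CA11, chr19:49148165-49148215, plus strand: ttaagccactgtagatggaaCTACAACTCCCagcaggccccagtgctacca
CA11, chr19:49148234-49148284, minus strand: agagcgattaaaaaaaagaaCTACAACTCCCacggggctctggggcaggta
EMILIN1, chr2:27304207-27304257, plus strand: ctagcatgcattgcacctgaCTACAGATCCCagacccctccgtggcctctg
GRIN2D, chr19:48922655-48922705, plus strand: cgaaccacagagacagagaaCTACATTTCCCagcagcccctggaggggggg
GRIN2D, chr19:48922735-48922785, minus strand: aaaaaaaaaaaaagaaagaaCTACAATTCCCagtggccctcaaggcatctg
FHIT, chr3:61235733-61235783, minus strand: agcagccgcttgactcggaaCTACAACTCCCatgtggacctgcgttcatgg
NFIC, chr19:3435313-3435363, minus strand: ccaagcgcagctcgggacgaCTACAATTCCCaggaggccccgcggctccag
GYS1, chr19:49479641-49479691, minus strand: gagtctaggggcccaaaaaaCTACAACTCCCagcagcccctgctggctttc
TULP2, chr19:49385122-49385172, plus strand: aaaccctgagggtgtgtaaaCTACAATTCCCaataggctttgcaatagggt
TULP2, chr19:49385191-49385241, minus strand: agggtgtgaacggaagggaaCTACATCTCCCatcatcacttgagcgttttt

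Forkhead letters, TGTTTAC, were found in 18 intronic peaks, including a peak in SLC25A21 whose site is not shown. The 5 sites shown lie in genes of forkhead factors or in other hosts described in the time course. Each is given 5′ to 3′ on the strand of the site with 20 bases on each side, and capitals mark the motif.
FOXP1, chr3:71257904-71257950, minus strand: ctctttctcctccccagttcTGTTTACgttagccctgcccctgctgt
FOXP1, chr3:71257783-71257829, minus strand: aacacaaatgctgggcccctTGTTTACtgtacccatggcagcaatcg
FOXP4, chr6:41546460-41546506, plus strand: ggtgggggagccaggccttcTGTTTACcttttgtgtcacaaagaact
LGR5, chr12:71834825-71834871, minus strand: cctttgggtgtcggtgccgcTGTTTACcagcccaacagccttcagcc
NEK10, chr3:27402242-27402288, minus strand: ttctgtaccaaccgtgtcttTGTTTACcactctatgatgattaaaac

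The centre of the intronic peak with the highest score and of 2 peaks in genes of insulin signalling and glucose uptake held neither set of letters, and their central 200 bases on the plus strand are given without capitals.
RNF4, chr4:2538131-2538330: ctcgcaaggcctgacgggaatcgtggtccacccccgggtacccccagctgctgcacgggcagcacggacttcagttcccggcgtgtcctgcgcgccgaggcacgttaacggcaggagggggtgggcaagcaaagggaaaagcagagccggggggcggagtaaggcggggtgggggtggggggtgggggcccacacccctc
PTPRF, chr1:43996932-43997131: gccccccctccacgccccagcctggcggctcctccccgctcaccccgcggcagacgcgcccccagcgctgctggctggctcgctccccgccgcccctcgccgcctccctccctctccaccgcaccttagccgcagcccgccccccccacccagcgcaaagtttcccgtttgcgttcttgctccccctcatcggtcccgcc
SLC2A2, chr3:170720029-170720228: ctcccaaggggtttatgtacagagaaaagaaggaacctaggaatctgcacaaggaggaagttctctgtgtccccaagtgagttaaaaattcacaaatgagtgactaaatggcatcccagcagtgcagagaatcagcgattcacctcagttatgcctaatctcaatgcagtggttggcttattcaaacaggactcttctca

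The intronic peaks had lower scores than the promoter peaks. The score is the authors' own peak score, used here to order peaks within the list, and no replicate library was available to give it an error. Its median over the intronic peaks was 46, with quartiles of 29 and 86.5 and a range of 13 to 2071. The 1493 promoter peaks had a median of 98, and the 162 intergenic peaks a median of 47.5. Of the intronic peaks 53, or 28.8% (95% Wilson interval 22.7% to 35.7%), lay above the median of 79 over all peaks. The same share was 55.7% (53.2% to 58.2%) for promoter peaks and 29.6% (23.1% to 37.1%) for intergenic peaks, and these intervals cover counting error only. A single intronic peak, which HOMER assigned to RNF4, was among the 100 highest of the list. The intronic peaks were also narrower than the promoter peaks, with median widths of 370.5 and 484 bases, and the intergenic median was 385.5.

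**Figure D1:**
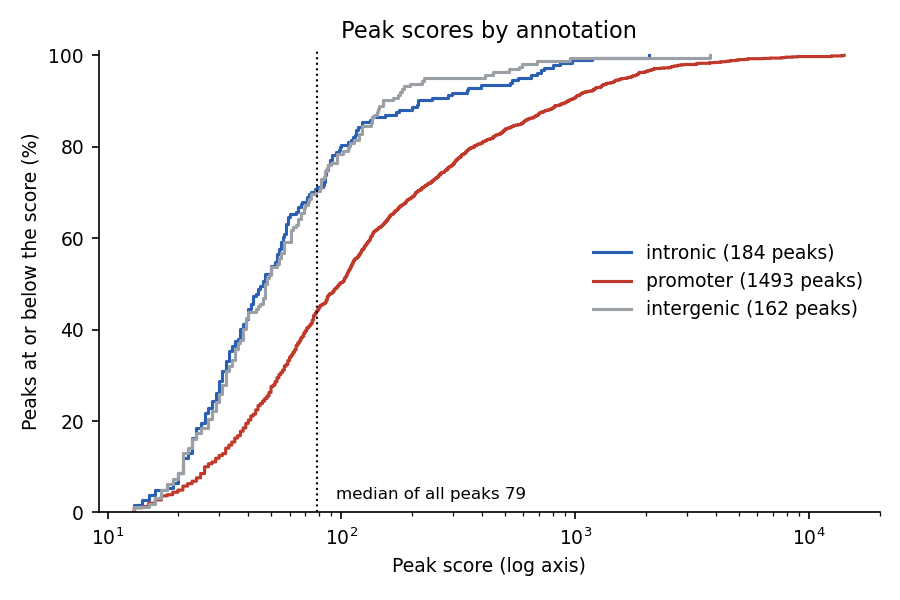
Cumulative share of peaks in percent (y axis) against peak score on a log axis (x axis) for 184 intronic, 1493 promoter and 162 intergenic IR peaks, with a dotted line at the median of all peaks, 79. The intronic and intergenic curves run close together to the left of the promoter curve, with medians of 46, 47.5 and 98.

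Among the 12 highest scores were those of peaks that HOMER assigned to introns of RNF4 (2071), LMTK3 (1177), CA11 (965), EMILIN1 (805), GRIN2D (737), FHIT (715), GPR137 (683), the gene ENSG00000249417 (649), RP11-247A12.2 (570), NFIC (538) and DLG4 (526). RNF4 is a ubiquitin ligase for SUMO-modified proteins, LMTK3 a kinase and CA11 a carbonic anhydrase-related protein. GRIN2D is a subunit of the NMDA receptor, DLG4 a scaffold of the synapse, EMILIN1 a matrix protein, FHIT a nucleotide hydrolase and NFIC a transcription factor. Chromosome 19 held 23 intronic peaks, or 12.5%, against 11.97% of all peaks and 1.91% of the genome, and the peaks of LMTK3, CA11, GRIN2D and NFIC lay there. No intronic peak lay on chromosome 18, X or Y, which held 21, 25 and 0 of all peaks.

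The wider form of the ZNF143 and THAP11 letters was present in 24 intronic peaks (13.04%), in 415 promoter peaks (27.8%) and in 9 intergenic peaks (5.56%). It was in 0 of the 368 windows of the same length 2000 bases to either side of the intronic peaks, and in 1.97% of 35116 RefSeq promoters of 300 bases (GRCh38.p14). Of the 12 intronic peaks with the highest score 9 held it, as did 10 of the next 38, 5 of the 50 in places 51 to 100, and 0 of the remaining 84, whose scores ran from 13 to 41. The median score was 315 with the site and 40 without it. The letters were chosen after the highest-scoring members were read, so these scores, and the share against the flanks, are not independent of that choice. Promoter peaks with and without the site had medians of 311 and 67, so that intronic and promoter peaks that held it had similar scores. The stricter form ACTACAATT was in 6 intronic peaks (3.26%), those in GRIN2D, NFIC, TOB2, TULP2, NUCB1 and SLC25A13, and in 0 of 368 flanking windows, 3.95% of promoter peaks and 0.336% of RefSeq promoters. The median score was 172.5 in the 6 intronic peaks with this form and 44 in the other intronic peaks.

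Some of these peaks held more than 1 site. In the 24 peaks 35 sites were found, at a median of 48 bases from the centre. These sites were sought only in the window around the peak centre. The window limits how far from the centre, and how far apart, they could lie, so closeness was not tested. The number of sites per peak was not compared with promoter peaks. At 14 peaks there was 1 site, and 10 peaks held 2 or more, of which 9 had sites on opposite strands. In the 8 peaks with exactly 1 site on each strand the sites were 44 to 80 bases apart with a median of 68.5, among them LMTK3 and CACNG8 at 68, CA11 and TULP2 at 69, NUCB1 at 70, TOB2 at 66, GRIN2D at 80 and CAVIN1 at 44. Chromosome 19 held 10 of the 24, so that 43.5% of its 23 intronic peaks held the site against 8.70% of the 161 on other chromosomes. Its promoter peaks held the site in 64 of 181 cases (35.4%). Most of the 10 lay in 1 stretch of the chromosome. Those in GRIN2D, LMTK3, CA11, TULP2, NUCB1, GYS1 and IRF3 lay between chr19:48906895 and chr19:50163366, and those in NFIC and CACNG8 lay elsewhere. None of the 24 had a near-identical copy elsewhere in the genome, their GC content was 55.3% against 54.8% in the other intronic peaks, and 5 of them lay within 1000 bases of an annotated start. The hosts included GYS1, the glycogen synthase of muscle and most other tissues, with a score of 176 at chr19:49479405-49479750, intron 5 of 10, and IRF3, a transcription factor of the interferon response, with a score of 286. These hosts were named after the matches were seen.

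**Figure D2:**
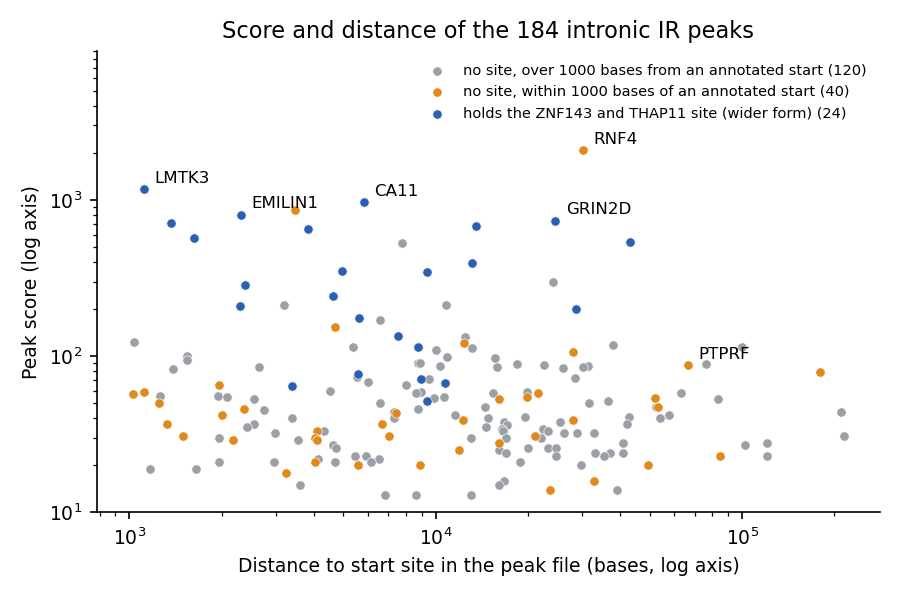
Peak score (y axis, log) against distance to the start site in the peak file in bases (x axis, log), 1 point for each of the 184 intronic peaks, coloured by whether the peak holds the wider ZNF143 and THAP11 site (24), lies within 1000 bases of an annotated start without it (40), or neither (120). The points with the site span scores of 52 to 1177 at both short and long distances, and none has a lower score. The wider letters were chosen after the highest-scoring members were read.

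The shares of other letters also differed between intronic and promoter peaks. The forkhead letters were in 9.78% of intronic and 10.5% of intergenic peaks, against 2.28% of promoter peaks, 3.26% of the flanking windows and 3.42% of RefSeq promoters. The 18 intronic peaks with them had scores of 14 to 395 and a median GC content of 51.7%, 3 lay within 1000 bases of an annotated start, and their sites were at a median of 81 bases from the centre, 4 of 19 within 50 bases. FOXP1 and FOXP4, which encode forkhead transcription factors, both hosted such a peak, with 2 sites in the FOXP1 peak. The intronic peaks in FOXK2 (score 46) and FOXO6 (score 15), also forkhead genes, did not hold these letters. The letters of an ETS site, CCGGAAG, were in 3.80% of intronic and 17.7% of promoter peaks, and those of a GC box, GGGGCGGGG, in 9.24% and 25.6%. The AP-1 letters TGANTCA were in 8.15% of intronic peaks and 8.42% of their flanks, and those of CEBP, TTGCNNAA, in 10.9% and 9.24%. The core letters of CTCF, AGGGGGC, were in 15.8% of intronic peaks, 6.79% of flanks and 21.9% of promoter peaks. HNF4 letters, CAAAGTCCA, were in 2 members, HNF1 letters, GTTAATNAT, in 1, NRF1 letters, GCGCATGCG, in 1, E-box letters, CACGTG, in 5, and CRE letters, TGACGTCA, in 0. In intergenic peaks the shares were 3.70% for ETS, 9.88% for the GC box and 15.4% for CTCF, near those of intronic peaks. They were 7.41% for AP-1, 13.6% for CEBP and 6.79% for the E-box, which was in 2.72% of intronic peaks. A match describes letters, and binding of these factors was not measured here.

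**Figure D3:**
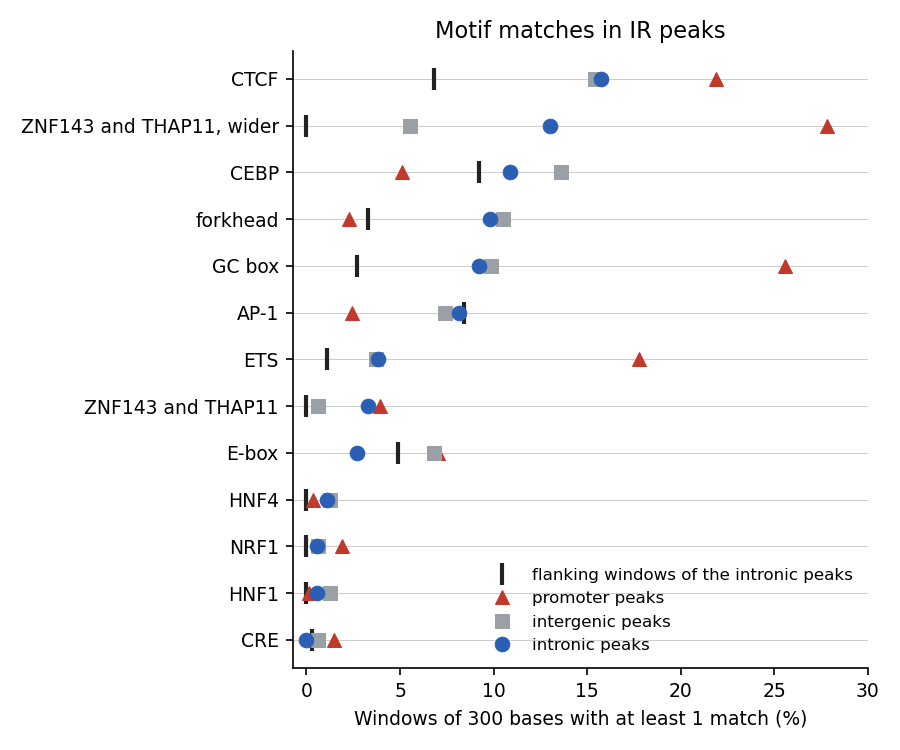
Share of 300-base windows with at least 1 match in percent (x axis) for 12 motifs and the wider ZNF143 and THAP11 form (y axis), in intronic peaks, their flanking windows, promoter peaks and intergenic peaks. The wider ZNF143 and THAP11 letters, chosen after the highest-scoring members were read, are at 13.04% in intronic peaks and 0 in their flanks. The forkhead letters are higher in intronic (9.78%) than in promoter peaks (2.28%).

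The distance used by the rule set the peaks apart from 1 start per gene and not from every annotated start. It ran from 1025 to 215276 bases with a median of 10675 and quartiles of 4271 and 24581. Just inside the limit lay the peaks in LGR5 (1025 bases, score 57), HS1BP3 (1035, score 123), KIAA0368 (1117, score 59), LMTK3 (1120, score 1177) and LINC01551 (1164, score 19), and just outside it those in C16orf72 (925, score 13), RP11-718O11.1 (817, score 51) and SCAF4 (715, score 18). The largest distances were those of PPP3CA (215276), CTNND2 (210873), TRPM3 (179162), ARHGEF3 (120957) and GULP1 (120726), with scores of 31, 44, 79, 28 and 23. Against the starts of all transcripts of GENCODE release 44, lifted to GRCh37, 45 of the 184 peaks (24.5%, 95% Wilson interval 18.8% to 31.1%) had their centre within 1000 bases of a start, 41 of them a start of the host itself. The median distance to such a start was 3599 bases, and 82 peaks (44.6%) were over 5000 bases from any. The centre of the peak in PIK3CD, which encodes a catalytic subunit of PI3-kinase, was 1 base from an annotated PIK3CD start. The PTPRF peak at chr1:43996729-43997333 was listed 66714 bases from a start and lay 457 bases from an annotated one. TRPM3 was at 322 bases.

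Base composition followed this split. The 45 peaks near an annotated start had a median GC content of 68% over 300 bases and an observed-to-expected CpG ratio of 0.719, and the other 139 had 53% and 0.263. Promoter peaks were at 68% and 0.847, and intergenic peaks at 52.8% and 0.3085. Over all intronic peaks the median GC content was 54.8%, and 144 of 184 were higher than the mean of their own flanks. The same held for 136 of the 162 intergenic peaks and 1451 of the 1493 promoter peaks. Scores did not follow the split in the same way, with a median of 43 near a start and 47 elsewhere. Intron 1 held 99 of the peaks, of which 37 lay near an annotated start, and introns from the third onward held 49 peaks, of which 7 did.

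Some hosts differed between the peak list and a later annotation. In GENCODE release 44 the centre of 173 peaks lay inside the body of the listed host, that of 7 lay outside it, and 4 hosts were not listed. The peak with the highest score, chr4:2537826-2538634, was given as intron 3 of RNF4 and lay 20646 bases outside the RNF4 body in that release and 144 bases from an annotated start of FAM193A. The 5 peaks assigned to BAGE2, the largest number in any host, lay 6603 to 37056 bases outside it. A near-identical second copy was found for 4 of these 5, with 90% or more of the central 300 bases matched, so their reads could have been placed at either copy. In all 14 intronic peaks (7.61%) had such copies, against 1.81% of promoter and 11.1% of intergenic peaks. The peaks in RP11-526A4.1, KCNE4 and SLC25A21 (score 32) had at least 778, 320 and 67, since the search limits the number of matches it returns. None of the 12 highest scores was among the 14.

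The 184 peaks fell in 172 host genes, 164 with 1 peak and 8 with 2 or more. GRIN2D held 3, with scores from 23 to 737, and NFIC, LINC00511, ASPSCR1, RNF32-DT, PTPRF and SLC25A21 held 2 each. HOMER's nearest start belonged to the host for 84 peaks and to another gene for 100. A promoter peak of the same host was listed for 19 intronic peaks, and 10 intronic peaks lay within 10000 bases of a promoter peak, FHIT at 1417 bases and LMTK3 at 3235 among them. By type 140 peaks lay in hosts annotated as protein-coding and 31 in hosts annotated as lncRNA.

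Of the gene lists, those of insulin signalling and metabolism held 5 hosts. PTPRF and FOXK2 were on the insulin and IGF list. PTPRF is a receptor tyrosine phosphatase that can act on IR, and FOXK2 a forkhead factor downstream of insulin. SLC2A2 (the glucose transporter GLUT2) and FBP1 (a gluconeogenic phosphatase) were on the glucose list, and MLXIPL (the sugar-responsive factor ChREBP) on the lipid list. Their peaks scored 88 and 54 (PTPRF), 46 (FOXK2), 40 (SLC2A2), 40 (FBP1) and 25 (MLXIPL), so that 1 of these 6 was above the median of all peaks, 79. The lists of hepatocyte transcription factors, plasma proteins, immediate early genes and actin genes held 0 hosts. These lists named 28, 36, 34 and 34 genes, and the insulin and IGF, glucose and lipid lists 52, 22 and 33. Over all 13852 tested genes 119 were hosts, and the counts per list were not tested against that share.

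Of the 172 hosts 143, with 154 peaks, were found in the RNA-seq count table. The hepatocyte markers ALB, AFP and APOA1 were at 15800 to 22260, 4267 to 6497 and 2628 to 3355 TPM, a level per transcript length. Of the markers of other cell types, the leukocyte genes PTPRC and CD3E were listed at 0 in every library, while CD68 was at 48.7 to 60.3 and LYZ at 7978 to 10480 TPM. The endothelial genes PECAM1, VWF and CDH5 were at 0 to 1.72 TPM. Of the fibroblast and stellate genes COL1A2 and DCN were listed at 0, COL1A1 was below 1 and ACTA2 was at 60.5 to 95.8 TPM. The cholangiocyte genes KRT19 and SOX9 were at 541 to 840 and 236 to 314 TPM and KRT7 at 0 to 0.344. The part of these genes in the host results was not tested. Of the 143 hosts 118 (82.5%) had a mean of at least 1 TPM, against 50.3% of the 26364 genes of the table and 96.7% of the 1377 genes with a promoter peak and no intronic one. The median level was 16.3 TPM in the hosts, 1.054 over all genes and 30.6 in the promoter group. RRBP1, an endoplasmic reticulum protein, was the host with the highest level at 494 TPM. After the filter on low counts 119 hosts were tested with edgeR's quasi-likelihood test, and 24 were not, BAGE2, TTLL9 and CACNG8 among them. Libraries held 18347109 to 45005769 counted reads, and nothing in the labels says that replicates came from separate cultures, so p-values measure the spread between these libraries.

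At 5, 10 and 30 min no host passed the threshold of an edgeR adjusted p under 0.05. The shares over all 13852 tested genes were 0.0%, 0.137% and 0.332%. At an unadjusted p under 0.05 there were 21, 8 and 9 hosts, against 1976, 710 and 1125 of all genes. DESeq2 and limma on TPM also called 0 hosts at these times. The median log2 fold changes of the hosts were -0.0057, -0.025 and -0.011, beside 8.43e-05, -0.0014 and -0.0050 over all genes.

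At 240 min 57 of the 119 hosts (47.9%) had changed against 0 min by the edgeR test, where 41.0% of all genes had. The balance between directions was uneven, with 18 hosts higher and 39 lower, or 15.1% and 32.8% of the tested hosts against 20.6% and 20.4% of all genes. The median log2 fold change of the hosts was -0.094, against -0.0026 over all tested genes. In bulk RNA a change in the share of cells that express a gene and a change in RNA per cell cannot be told apart. With limma on log2(TPM + 1), 18 hosts were higher and 21 lower of 132 tested (29.55% in all), where 14.4% of all genes were higher and 8.6% lower (22.9% in all). With limma limited to genes with a mean of at least 1 TPM, 20 hosts were higher and 22 lower of 118. That is 35.59% of these hosts, against 33.76% of all genes at that level. With upper-quartile normalization 21 hosts were higher and 30 lower of 119 (42.86%), where 23.0% of all genes were higher and 17.7% lower (40.7%). With DESeq2 14 hosts were higher and 35 lower of 138 (35.51%), where 10.3% of all genes were higher and 11.2% lower (21.5%). The shares of all genes cover 20553 genes with DESeq2 and 18369 with limma on log2(TPM + 1), where edgeR tested 13852 after its filter. With scaling by the ERCC spike-ins 4 hosts were higher and 12 lower of 119 (13.45%), where 2.39% of all genes were higher and 5.26% lower (7.65%). Without 0 min replicate 2, 14 hosts were higher and 25 lower (32.77%), where 13.7% of all genes were higher and 13.9% lower (27.6%). Hosts were long, with a median body of 66809 bases against 25852 over all tested genes. Among the 3287 tested genes of at least 66809 bases, 17.01% were higher and 28.6% lower, and among the 60 hosts of that length 9 were higher and 24 lower. Among the 1347 tested genes with a promoter peak and no intronic one 21.2% were higher and 26.8% lower. The part of gene length in the balance was not tested, and the host count was not set against a chance level because peaks and hosts are not replicates.

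**Figure D4:**
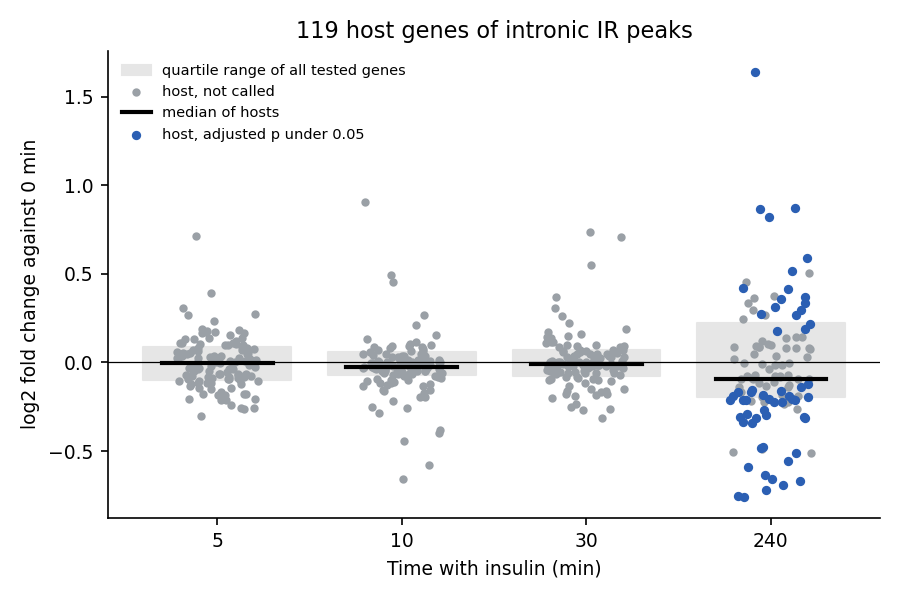
The log2 fold change against 0 min (y axis) of the 119 tested hosts at 5, 10, 30 and 240 min of insulin (x axis), 1 point per host, with hosts called at an adjusted p under 0.05 in blue, the median of the hosts as a bar and the quartile range of all tested genes as a grey box. At 240 min 57 hosts are called and more of them, 39, lie below 0 than above.

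The largest falls named by rule were those of FOXP1, USP28, PIK3CD, IL6R and SLC2A2. FOXP1, a forkhead repressor expressed in the liver, was measured in the 0 min replicates at 162.5 and 164.4 CPM (counts scaled to library size). The 5 min pair gave 176.2 and 169.3 CPM, the 10 min pair 165.1 and 172.5, the 30 min pair 169.1 and 175.0, and the 240 min pair 95.8 and 98.0. The 240 min libraries were below all 8 others. The 0 min pair lay below the 6 libraries at 5, 10 and 30 min, which overlapped among themselves and did not pass the test against 0 min. At 240 min edgeR gave a log2 fold change of -0.76 ± 0.048 (standard error) with an adjusted p of 1.16e-09. PIK3CD was at 36.2 and 34.8 CPM at 0 min and at 21.5 and 21.6 at 240 min, which is -0.72 ± 0.068 (standard error) in log2 (edgeR, adjusted p = 1.15e-07). Its values at 5, 10 and 30 min ran from 31.6 to 34.7 CPM. IL6R, a receptor for the acute-phase cytokine IL-6, was at 44.03 and 41.4 CPM at 0 min and 23.9 and 30.0 at 240 min, which is -0.67 ± 0.090 (standard error) in log2 (edgeR, adjusted p = 7.91e-06). USP28, a deubiquitinase, fell by 0.76 on the log2 scale (adjusted p = 9.27e-09, edgeR), from 52.8 and 53.4 to 31.7 and 31.2 CPM.

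SLC2A2 fell the most among the hosts on a metabolic list. The 0 min libraries held 68.5 and 72.8 CPM, the 5 min pair 75.5 and 80.9, the 10 min pair 64.3 and 63.1, the 30 min pair 73.5 and 71.2, and the 240 min pair 46.2 and 43.7. The 240 min values lay below all others, and the difference in log2 was -0.66 ± 0.058 (standard error; edgeR, adjusted p = 4.74e-08). The peak in its intron 7 of 9, chr3:170719913-170720344, was 5131 bases from the nearest annotated start, with a score of 40. MLXIPL went from 94.4 and 96.7 CPM to 84.1 and 81.0, which is -0.21 ± 0.065 (standard error) in log2 (edgeR, adjusted p = 0.0138). PTPRF went from 310.5 and 330.1 CPM to 280.5 and 290.1, which is -0.17 ± 0.058 (standard error) in log2 (edgeR, adjusted p = 0.0257). Both calls were lost with limma on TPM and with scaling by the ERCC spike-ins, and that of PTPRF also with upper-quartile normalization. Without 0 min replicate 2 the values were -0.20 for MLXIPL and -0.12 for PTPRF, without 240 min replicate 2 MLXIPL was at -0.19, and without 240 min replicate 1 PTPRF was at -0.15, none past the threshold. FOXK2 was at 156.7 and 159.2 CPM at 0 min and 164.0 and 151.4 at 240 min, and the groups overlapped. FBP1 was at 1.39 to 2.23 CPM at 0 min and 0.947 to 1.88 at 240 min, which also overlapped.

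**Figure D5:**
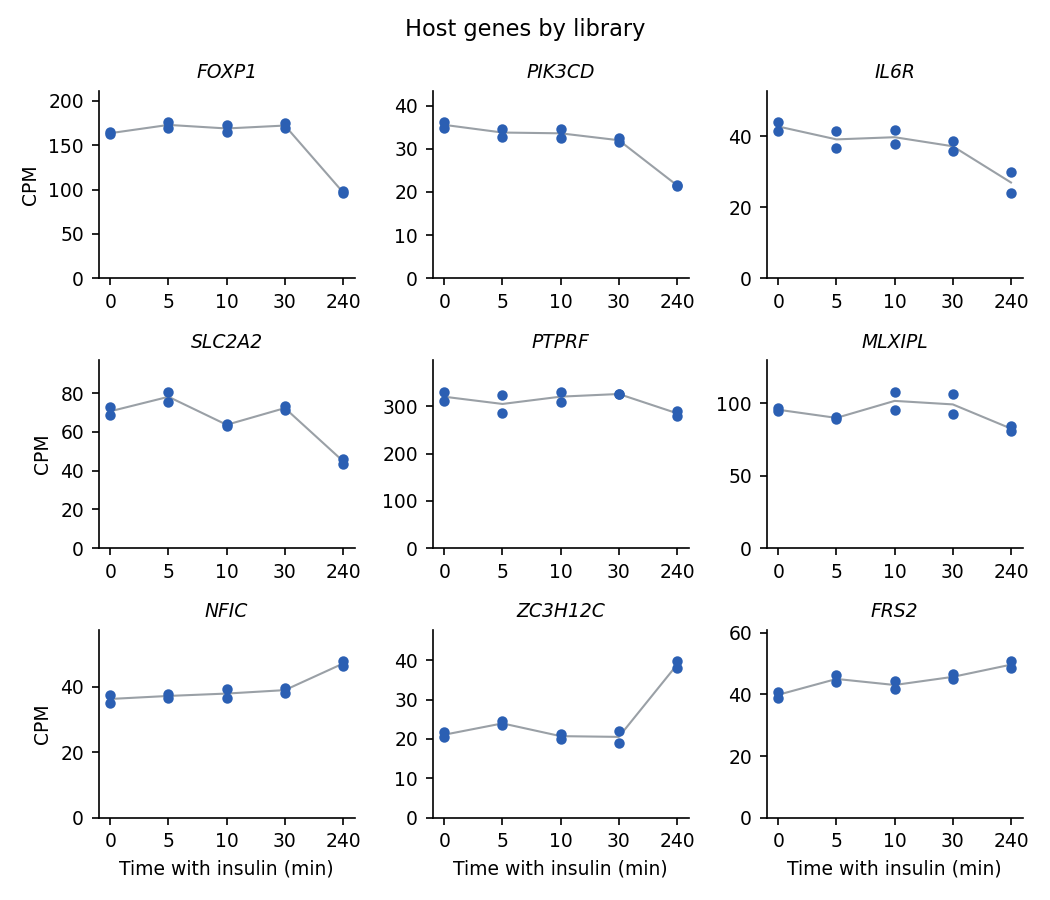
Level of 9 host genes in CPM (y axis from 0) in each library by time with insulin in min (x axis), with 2 points per time for the replicates and a line through their mean. FOXP1, PIK3CD, IL6R and SLC2A2 drop at 240 min, ZC3H12C rises, and PTPRF, MLXIPL, NFIC and FRS2 move less.

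The other falls named by rule were those of MBTD1 (-0.64), CCBL1 (-0.59), RMDN2 (-0.55), GPR137 (-0.51) and TRAK1 (-0.48), on the log2 scale. MBTD1 is a chromatin reader, CCBL1 a kynurenine aminotransferase, and TRAK1 an adaptor of mitochondrial transport. The call for CCBL1, at 6.205 to 9.77 CPM in the 0 and 240 min libraries, was lost with limma on TPM.

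Rises were smaller in number. ZC3H12C, of the family of regnase RNA-degrading proteins, was at 20.4 and 21.7 CPM at 0 min and 37.9 and 39.7 at 240 min, with 19.1 to 24.5 in between, which is 0.87 ± 0.075 (standard error) in log2 (edgeR, adjusted p = 3.92e-08). Its peak had a score of 13, the lowest value in the list. ICA1L went from 8.03 and 7.25 to 14.1 and 13.5 CPM (0.87, adjusted p = 1.56e-06, edgeR), and ARSI, a sulfatase, from 43.7 and 49.6 to 81.4 and 84.4 CPM (0.82, adjusted p = 5.88e-08, edgeR). CACNB4, SH3BP2, BAZ1A, NFIC, RNF4, NEK10 and FRS2 rose by 0.52, 0.42, 0.41, 0.37, 0.36, 0.34 and 0.31 on the log2 scale. FRS2, the docking protein of FGF receptors, was at 38.9 and 40.9 CPM at 0 min and 50.7 and 48.5 at 240 min. With ERCC scaling the calls of CACNB4, SH3BP2, BAZ1A, NFIC, RNF4, NEK10 and FRS2 were lost, while those of ZC3H12C, ICA1L and ARSI passed. NEK10 also did not pass with DESeq2, without 0 min replicate 2 (0.23) or without 240 min replicate 1 (0.23). The RNF4, ARSI, GPR137 and CCDC113 peaks lie outside the gene bodies that the RNA-seq tables give for these hosts. In all, 15 of the 154 peaks with a counted host do so. CCDC113, a protein of cilia, had the largest fold of any host, from 1.72 and 1.10 to 3.72 and 4.63 CPM (1.64 in log2, edgeR adjusted p = 9.04e-06). It was named after its value was seen, and its mean lay under the 5 CPM set for naming.

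Of the 12 peaks with the highest score, 9 had a tested host, and 3 of these changed at 240 min, RNF4 and NFIC upward and GPR137 downward, beside 41.0% of all genes. LMTK3, with a score of 1177, was at 4.50 and 4.96 CPM at 0 min and 4.72 and 5.63 at 240 min, which overlapped. CA11, EMILIN1, GRIN2D, FHIT and DLG4 did not pass the test, with log2 fold changes of -0.50, -0.19, 0.08, -0.27 and -0.23. Of the 37 tested hosts with a peak above the median score 15 (40.5%) changed, 6 upward and 9 downward. Hosts with a peak near an annotated start changed in 20 of 37 cases (54.1%), 5 upward and 15 downward, and those with peaks only elsewhere in 37 of 82 (45.1%), 13 upward and 24 downward. Among hosts of peaks with the wider ZNF143 and THAP11 letters 5 of 15 changed (33.3%), and among those with forkhead letters 7 of 13 (53.8%), 1 upward and 6 downward. These shares stand beside 41.0% over all genes and were not tested against it. GYS1, at a mean of 26.0 CPM, differed by 0.09 in log2 (edgeR, adjusted p = 0.382), and LGR5, at 317.3 CPM, by -0.32 (edgeR, adjusted p = 9.2e-05). Both were named after their peaks were seen.

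Of the other hosts with 2 or more peaks, ASPSCR1, whose protein tethers the glucose transporter GLUT4 within the cell, went from 97.3 and 100.9 CPM at 0 min to 88.8 and 83.1 at 240 min (-0.21 in log2, edgeR adjusted p = 0.00898). The call was lost under ERCC scaling, in limma on TPM values, without 0 min replicate 2 (-0.18) or without 240 min replicate 2 (-0.16). LINC00511 and SLC25A21 had values of 0.27 and 0.46 in log2 and did not pass, and BAGE2 had no counted read in any library but a mean of 3.29 TPM in the StringTie table, so that its level is uncertain.

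Among all genes of the same lists, 8 of 50 tested insulin and IGF signalling genes were higher and 25 lower at 240 min, 15 and 5 of 31 on the lipid list, and 5 and 8 of 20 on the glucose list. Their medians were -0.17, 0.16 and -0.09 on the log2 scale. Most of these genes hosted no intronic peak, with 2, 1 and 2 hosts in the 3 lists. Lists without a host moved as well. Of 34 immediate early genes 17 were higher and 4 lower, and of 34 actin genes 5 and 15. Of 28 hepatocyte transcription factors 5 were higher and 6 lower, and of 36 plasma protein genes 0 and 8. Over all tested genes 20.6% were higher and 20.4% lower.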

How the data were processed

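IR ChIP-seq peaks of 1 library and RNA-seq counts of 10 libraries of HepG2 cells were analysed. For the ChIP-seq the authors fixed cells with DSG and formaldehyde, aligned reads to hg19 with BWA 0.7.17-r1188, called peaks with MACS2 2.2.7.1 and deposited peaks annotated by HOMER, whose score is the authors' own. The input library was not analysed here. For the RNA-seq the authors trimmed reads with Trim Galore 0.6.4, aligned them with STAR 2.6.1d, counted them as reverse-stranded with featureCounts 1.6.4 and deposited raw counts, with StringTie abundances in TPM as a second deposited table. The versions come from the submitters' processing notes, and the StringTie and HOMER versions are not given in the sources used here. ERCC rows, with 1.59% to 2.36% of counts, were in no test and set the library sizes only under ERCC scaling. Their share was 1.595% and 1.586% in the 0 min pair and 1.654% and 1.915% in the 240 min pair. The part of this difference in the calls lost under ERCC scaling was not tested.

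Members and lists were chosen with earlier results of these data known. Hosts came from HOMER's gene identifiers, 6 of them through older symbols. The centre of each peak gave the window of 300 bases from GRCh37. Copies were sought with minimap2, and promoter sequences came from RefSeq. Counts were tested with edgeR in 1 model of 10 libraries with TMM and filterByExpr, without a replicate block, after the test recovered changed genes in simulated data. The simulation changed few genes, equally upward and downward. It therefore does not bear on the calls at 240 min, where 41.0% of genes were called. Genes with a Benjamini-Hochberg adjusted p under 0.05 were called. The standard error is the fold change divided by the root of F. The genes named are the 12 highest scores (1 of them is not reported here), the 5 smallest and largest distances, hosts with 2 or more peaks, listed hosts, and at 240 min the 10 largest rises and falls among called hosts with at least 5 CPM whose replicates did not overlap those at 0 min. Alternatives were RLE, upper-quartile and ERCC scaling, other filters, DESeq2, limma on log2(TPM + 1) and log2(TPM + 0.1), other hosts and distances, and each library left out.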

Additional observations from a re-analysis of the deposited data

How the results depend on the processing

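The number of hosts changed at 240 min, 57 of 119, stayed within 1.5 times under every other setting run except 3. With ERCC scaling it was 16 (13.45%), 4 higher and 12 lower, where 7.65% of all genes were called. With hosts taken as the gene of the nearest start it was 30 of 64 tested, and with members at or above the median score 15 of 37, where fewer hosts were tested. The count was 49 of 138 with DESeq2 (35.51%, against 21.5% of all genes) and 39 of 132 with limma on log2(TPM + 1) (29.55% against 22.9%). It was 42 of 118 (35.59% against 33.76%) with limma limited to genes with a mean of at least 1 TPM. It ran from 39 to 60 when 1 library was left out, with 39 (32.77% against 27.6%) without 0 min replicate 2. The median log2 fold change of the hosts was -0.21 with ERCC scaling, which shifted the median of all genes to -0.12, so that relative to all genes the hosts stood at -0.09. It ran from -0.12 to -0.08 with 1 library left out, and was below 0 in every setting run. At 5, 10 and 30 min no setting called a host. The 240 min split of higher and lower hosts was 17 and 28 without 240 min replicate 2.

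The share of peaks that are intronic members was 6.60% with a distance over 5000 bases and 2.74% when only members at or above the median score were kept. The share of members above the median score kept to 27.7% to 28.8% over the distance limits. Of 691 repeats of the 33 named host results at other settings, 658 kept their direction and side of the threshold or had no call to lose, 32 lost the call, 1 gained one and 0 called values reversed. Losses were in ASPSCR1, MLXIPL and PTPRF (log2 fold changes of -0.32 to -0.16, -0.33 to -0.17 and -0.29 to -0.12), CCBL1, NEK10 and, with ERCC scaling alone, BAZ1A, CACNB4, FRS2, NFIC, RNF4 and SH3BP2.

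Pairing of libraries by replicate number was not evident, since correlations of same-numbered deviations ran from -0.23 to 0.20 over the 10 pairs of times. With 2 libraries per time such correlations cannot exclude pairing. With a replicate block 58 hosts changed at 240 min, 57 of them the same hosts, and the median was -0.09. Over all genes 5845 were called at 240 min with the block and 5676 without it. The wider ZNF143 and THAP11 letters, added after the sequences of the highest-scoring members were read, raised the share of members with the motif from 3.26% to 13.04%. The 1 ChIP library gives no replicate error for any score.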
